A study of Mus musculus with 6 samples.

Results

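The genes described here are 46 genes of the actin cytoskeleton: actins, calponins and transgelins, tropomyosins, non-muscle myosin II and its light chains, filament crosslinkers, the transcription factor SRF with its MRTF coactivators, LIM-domain proteins, regulators of filament turnover, formins and ROCK kinases. They are named by symbol in a list whose rule uses no measured value, although earlier results of these data were known when it was drawn up. All 46 were among the 48440 genes of the count table, and 41 of them were among the 14811 genes with enough counts to be tested. The listed symbols Mkl1 and Mkl2 are Mrtfa and Mrtfb in the annotation.

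The series holds 6 RNA-seq libraries of mouse ovarian surface epithelial (OSE) cells, a one-layered epithelium on the surface of the ovary, taken 1 week after the cells received an adenovirus. In 3 libraries the virus carried Cre recombinase with GFP (Ad-Cre-GFP, genotype label Lats1/2 knockout), and in 3 it carried GFP alone (Ad-GFP, genotype label WT). LATS1 and LATS2 are the kinases at the core of the Hippo pathway, and the study asked what their loss does to gene expression in these cells. Because the groups differ in Cre as well as in genotype, the deletion and the exposure to Cre cannot be told apart. Both groups carried GFP and an adenovirus. The labels do not say whether the 3 replicates of a group came from separate cultures, so the p-values measure the spread between these libraries, which may be technical.

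As background, actin filaments with myosin II form contractile bundles, which tropomyosins, calponins and alpha-actinins shape. Free actin monomers hold MRTF proteins in the cytoplasm, and as monomers are built into filaments MRTFs enter the nucleus and act with SRF at a DNA element called the CArG box, near many genes of the cytoskeleton. Formins build straight filaments, and ROCK kinases activate myosin II. LATS kinases phosphorylate the coactivators YAP and TAZ, which act with TEAD factors on a set of genes that includes some of the cytoskeleton.

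The library totals were 27734527 to 30304033 counts in Ad-Cre-GFP and 18690235 to 25363462 in Ad-GFP, so all Ad-Cre-GFP libraries were deeper. Lats1 had 38.6, 36.0 and 36.5 CPM (the count divided by the scaled library total, times 1e+06) in Ad-Cre-GFP and 159, 151 and 168 CPM in Ad-GFP. Lats2 had 98.7, 101 and 96.6 CPM in Ad-Cre-GFP and 127, 131 and 131 CPM in Ad-GFP. Both were lower in every Ad-Cre-GFP library, with log2 fold changes of −2.10 ± 0.04 for Lats1 and −0.39 ± 0.03 for Lats2 (SE). Gene counts do not show which exons the reads come from, so reads outside a deleted part cannot be told apart from whole transcripts, and the Lats2 value is a limited check of the label. The first principal component separated the groups and held 89.5% of the variance; on the second, with 3.15%, Ad-GFP replicate 3 lay at −18.69 and the other Ad-GFP libraries at 8.85 and 11.08. Markers of ovarian surface epithelium summed to 2684 to 2718 CPM in Ad-Cre-GFP and to 2540 to 2628 CPM in Ad-GFP, but single markers changed in both directions. Of the 9 tested, 5 were higher and 3 lower, with Msln at 1.10 ± 0.03 and Upk3b at 1.05 ± 0.04, and with Krt19 at −1.60 ± 0.03 and Wt1 at −1.15 ± 0.04, on the log2 scale. In such bulk samples fewer cells of a type and less RNA per cell cannot be told apart.

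Of the 41 members tested, 29 were higher in Ad-Cre-GFP, 7 were lower and 5 did not pass (edgeR's quasi-likelihood test, Benjamini-Hochberg adjusted p under 0.05 over all genes tested). These counts stand against a large response of the whole transcriptome, in which 69.8% of all genes tested passed, 34.0% as higher and 35.8% as lower. Of the tested members, 70.7% were higher and 17.1% were lower. The median log2 fold change of the members was 0.26, against −0.01 over all genes tested, and the median absolute change was 0.31, against 0.35. The members' changes were thus about the size of those of other genes, and most were upward. All 29 higher members, and 6 of the 7 lower ones, had groups that did not overlap, while 35.4% of all genes tested lay wholly higher and 37.6% wholly lower. A change of at least 2-fold upward was seen for 6 members, or 14.6% of those tested, against 6.25% of all genes, and for 5 of 40 members without Cnn1. No member was lower by 2-fold or more, against 7.56% of all genes. Of the 41 tested members, 40 were above the count filter in all 6 libraries and Cnn1 passed it through the Ad-Cre-GFP libraries alone, where it is high, so that its call follows in part from the filter. Without Cnn1, 28 of 40 members were higher and 7 lower. With all libraries thinned to the smallest total, 29 members were higher and 6 lower. Without Ad-GFP replicate 3, 30 of 42 members were higher and 6 lower, while 4971 of all genes were higher and 5153 lower. The added member was Actg2, with 14, 13 and 9 counts in Ad-Cre-GFP and 0 in the Ad-GFP libraries left. It passed the filter through Ad-Cre-GFP libraries alone, so its call too follows in part from the filter.

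**Figure D1:**
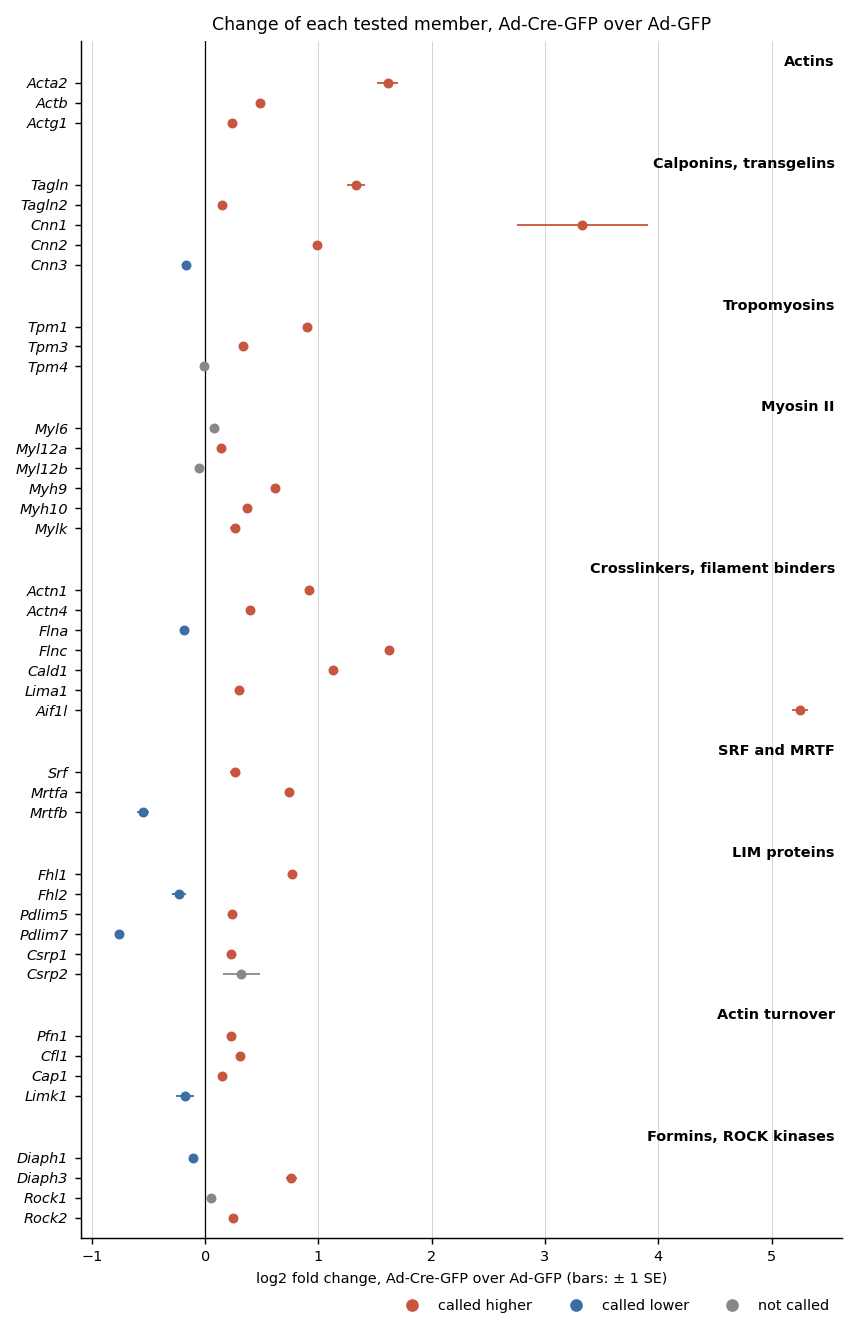
Log2 fold change of each of the 41 tested members, Ad-Cre-GFP over Ad-GFP on the horizontal axis, grouped by role down the page; bars are ± 1 SE (3 libraries a group) and colours mark members called higher, called lower or not called. Most points lie right of 0, with Aif1l farthest at 5.25, and the lowest is Pdlim7 at −0.76.

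The 46 members together took 2.92, 2.87 and 2.91% of all counts in the Ad-Cre-GFP libraries and 2.05, 2.06 and 2.02% in the Ad-GFP libraries. Every Ad-Cre-GFP library was above every Ad-GFP library. The summed level was 28994 ± 280 CPM in Ad-Cre-GFP and 20439 ± 229 CPM in Ad-GFP (SD, n = 3 each), a ratio of 1.42. With 3 libraries a group the exact two-sided permutation test cannot go below p = 0.10, which is the value it gave here and for the sums and shares below unless another is stated.

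The upstream DNA of some members holds the SRF element. Windows of 250 bases before to 50 bases after a RefSeq start (GRCm38.p6) were found for 39 members, 51 windows in all. A perfect CArG box lay in the windows of 8 members, or 20.5%, against 1.81% of all 27025 genes with a window and 1.61% of the 9869 tested genes with one. The members were listed as genes of the cytoskeleton and of SRF, so a share above that of all genes is in part built into the list. A match is a description of the letters, and whether SRF binds there was not measured. The boxes below belong to the members that passed the test, and each is given 5′ to 3′ on the gene's strand with the CArG box in capitals and 20 bases on either side.
Actg1, chr11:120348556-120348605, minus strand: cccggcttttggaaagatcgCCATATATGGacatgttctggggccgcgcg
Cnn2, chr10:79988524-79988573, plus strand: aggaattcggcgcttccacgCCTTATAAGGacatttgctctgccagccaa
Lima1, chr15:99820167-99820216, minus strand: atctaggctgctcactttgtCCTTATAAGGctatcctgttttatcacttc
Srf, chr17:46556215-46556264, minus strand: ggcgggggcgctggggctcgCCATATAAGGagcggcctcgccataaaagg
Srf, chr17:46556195-46556244, minus strand: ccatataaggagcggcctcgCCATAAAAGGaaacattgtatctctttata
Fhl1, chrX:56779561-56779610, plus strand: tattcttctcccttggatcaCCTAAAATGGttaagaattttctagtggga
Fhl2, chr1:43163963-43164012, minus strand: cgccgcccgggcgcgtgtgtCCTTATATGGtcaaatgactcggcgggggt

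The first base of the box lay at −90 from the start in Actg1, −56 in Cnn2, −47 in Lima1, −82 and −62 in Srf, −102 in Fhl1 and −31 in Fhl2. Srf thus has a pair of boxes in its own promoter. Fhl2 has a further box at −96 in a second window. The other members with a perfect box were Myl6, at −50, and Myl9, at −161. Of the 7 members with a box that were tested, 5 were higher, 1 was lower (Fhl2) and 1 did not pass (Myl6), with a median log2 fold change of 0.26, the median of all tested members. Acta2 had boxes with 1 mismatch, CCCTATATGG at −84 and CCTTGTTTGG at −34. With 1 mismatch allowed, 18 members (46.2%) had a box, against 23.8% of all genes with a window. The TEAD motif GGAATG was searched on both strands and overlapped no CArG box. It lay in the windows of 13 members, or 33.3%, against 16.6% of all genes with a window and 14.4% of the tested genes with one. No member had both GGAATG and a perfect CArG box, but Acta2, with its 1-mismatch boxes, had GGAATG at −146. Of the 12 tested members with GGAATG, 10 were higher and 2 lower (Flna and Mrtfb), with a median of 0.32.

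All 3 tested actins, the subunits of the filament, were higher, by very different amounts. Acta2, smooth muscle alpha-actin, had 1447, 1408 and 1406 CPM in Ad-Cre-GFP and 485, 504 and 401 CPM in Ad-GFP. The groups lay far apart, and Ad-GFP replicate 3 was the lowest library. The log2 fold change was 1.61 ± 0.09, a 3.06-fold rise (adjusted p = 2.42e-05), and 1.52 without Ad-GFP replicate 3. Actb, cytoplasmic beta-actin, had 3008, 3015 and 2993 CPM in Ad-Cre-GFP and 2120, 2151 and 2178 CPM in Ad-GFP. Replicates were within a few percent of each other and the groups did not overlap (log2 fold change 0.48 ± 0.03, adjusted p = 1.43e-12). Actg1, cytoplasmic gamma-actin, rose less, with 1048, 1055 and 1139 CPM in Ad-Cre-GFP and 898, 929 and 911 CPM in Ad-GFP (0.24 ± 0.03, adjusted p = 1.01e-06). Actg2, smooth muscle gamma-actin, had 36 counts over the 3 Ad-Cre-GFP libraries and 1 over the 3 Ad-GFP libraries, too few to be tested. Its ratio per library total was 26.9, with a 95% exact binomial interval of 4.54 to 1093 that covers counting error only.

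Per kb of exon, Acta2 made up 29.7 ± 0.5% of the 4 actins in Ad-Cre-GFP and 15.5 ± 1.65% in Ad-GFP (SD, n = 3 each), a difference of 14.2 percentage points. Actb made up 51.6 ± 0.452% in Ad-Cre-GFP and 59.2 ± 1.41% in Ad-GFP, and Actg1 18.7 ± 0.794% in Ad-Cre-GFP and 25.3 ± 0.293% in Ad-GFP. Each pair of groups was without overlap. Counted without near-identical copies, Acta2 stood above Actg1 in every Ad-Cre-GFP library and below it in every Ad-GFP library; with the copies of Actg1 added, Actg1 stood above Acta2 in all 6. The 4 actins summed to 5439 ± 34.9 CPM in Ad-Cre-GFP and 3570 ± 44.7 CPM in Ad-GFP, a ratio of 1.52.

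**Figure D2:**
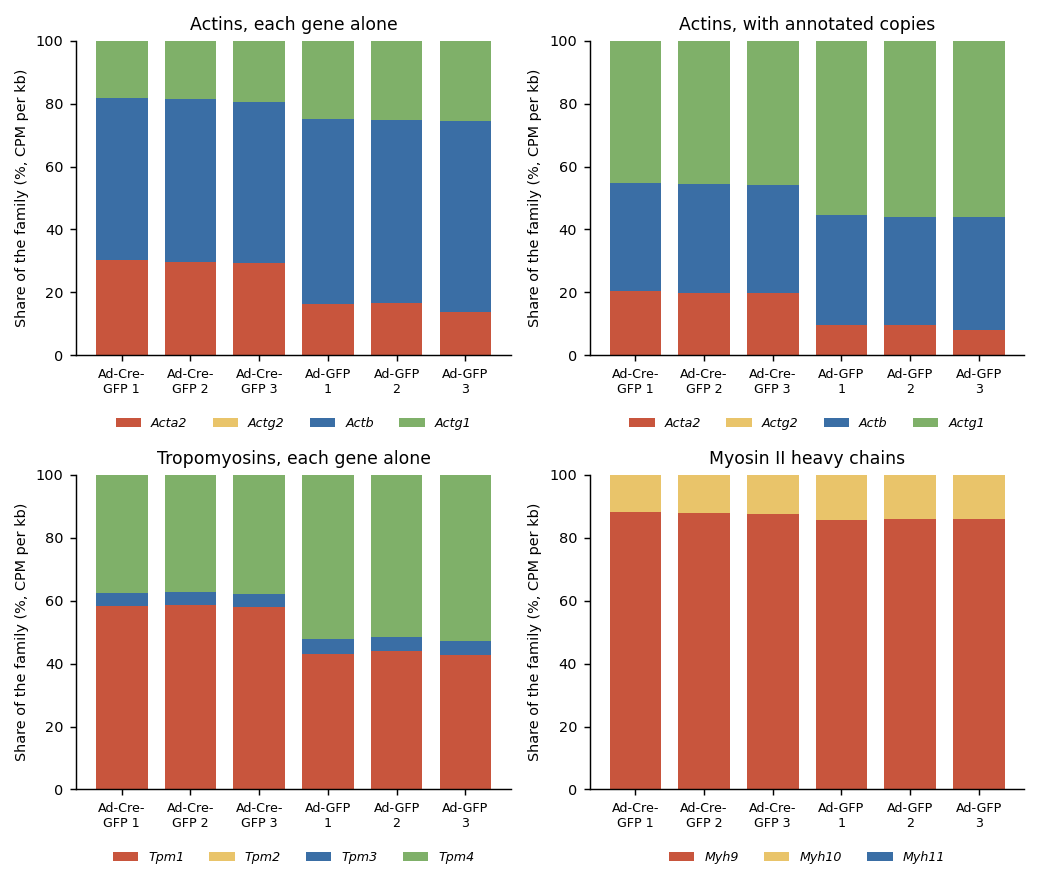
Stacked bars of each gene's share of its family (percent, CPM per kb of exon) in every library, the 3 Ad-Cre-GFP libraries left of the 3 Ad-GFP libraries, for actins without and with annotated copies, tropomyosins and myosin II heavy chains. Without copies Acta2 takes 29.3 to 30.3% of the actins in Ad-Cre-GFP and 13.6 to 16.6% in Ad-GFP, and Tpm1 takes 58.0 to 58.6% of the tropomyosins in Ad-Cre-GFP and 42.8 to 43.9% in Ad-GFP.

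The values of Actg1 depend on how reads were shared among near-identical copies, because how the authors' counting treated reads that match several places is not given in the sources used here. The table lists 8 copies of Actg1 (at least 200 aligned bases at 90% identity), which held 412881 counts, 268% of the 154130 counts of the gene itself. Most were in Gm12715, a processed pseudogene on chromosome 4 that is 99.6% identical over 1128 bases. Gm12715 had 2384, 2378 and 2327 CPM in Ad-Cre-GFP and 2112, 2191 and 2101 CPM in Ad-GFP, scaled to library totals. It was higher in every Ad-Cre-GFP library, by nearly the amount seen for the gene (log2 fold change 0.18 ± 0.03). Copies held 407% of the gene's counts for Myl6 and 124% for Tpm3, whose main copy is Tpm3-rs7 on chromosome 14, 99.1% identical over 2108 bases. For the other 6 members with copies the share was 25.3% or less. When each of the 9 members was summed with its copies, 29 members were higher and 7 lower, no call changed (34.1% and 35.8% of all genes tested so), and the log2 fold change of Actg1 was 0.20 ± 0.03. The shares did move. With copies, Acta2 made up 19.9 ± 0.315% of the actins in Ad-Cre-GFP and 9.17 ± 0.985% in Ad-GFP, and Actg1 became the largest, with 45.5 ± 0.354% in Ad-Cre-GFP and 55.8 ± 0.394% in Ad-GFP. Actb then took 34.6 ± 0.134% in Ad-Cre-GFP and 35.0 ± 0.832% in Ad-GFP, which did not differ beyond the spread (exact permutation p = 0.600). The ratio of the summed actins was 1.35 with copies.

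**Figure D3:**
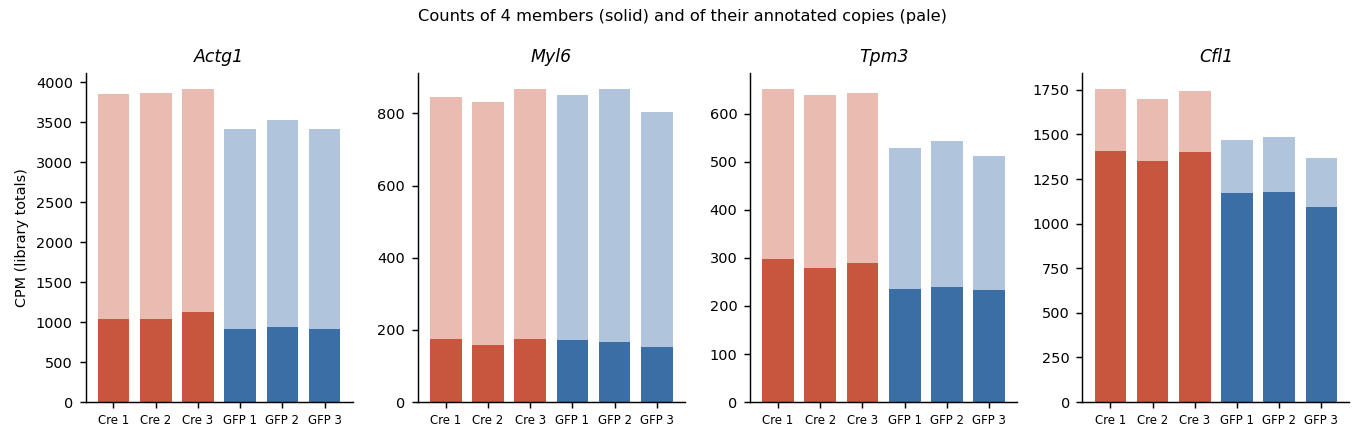
Stacked bars of CPM on library totals for Actg1, Myl6, Tpm3 and Cfl1, with the gene itself solid and its annotated copies pale, in the 3 Ad-Cre-GFP (Cre) and 3 Ad-GFP (GFP) libraries. For Actg1 the copies stand at 2792 to 2829 CPM in Ad-Cre-GFP and at 2496 to 2594 CPM in Ad-GFP, more than the gene in every library, whereas for Cfl1 they are the smaller portion.

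Among the calponins and transgelins, which bind along actin filaments, 4 of 5 members were higher, Cnn1 among them, and 1 was lower. Cnn2, the calponin of many non-muscle cells, had 737, 729 and 742 CPM in Ad-Cre-GFP and 365, 394 and 349 CPM in Ad-GFP. Levels were close to 2-fold apart, and the groups did not overlap (0.99 ± 0.04, adjusted p = 1.45e-15). Tagln, or SM22-alpha, an early marker of smooth muscle, had 24.6, 23.2 and 24.7 CPM in Ad-Cre-GFP and 10.6, 10.1 and 7.94 CPM in Ad-GFP (1.33 ± 0.08, adjusted p = 2.00e-12). Its exons share 108 bases with the antisense gene Pcsk7, and without a stated strand setting the reads there cannot be told apart. Cnn1, the smooth muscle calponin, had 14, 14 and 15 counts in Ad-Cre-GFP and 1, 2 and 0 counts in Ad-GFP. It was at the edge of detection in Ad-GFP, and the ratio of the summed counts per library total was 10.7 (95% exact binomial interval 3.43 to 54.0, for counting error only). Tagln2, a non-muscle transgelin, rose by a small amount (0.15 ± 0.03). Cnn3, the acidic calponin, was lower in every Ad-Cre-GFP library, with 537, 543 and 547 CPM in Ad-Cre-GFP and 597, 595 and 633 CPM in Ad-GFP (−0.17 ± 0.03, adjusted p = 5.90e-05).

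The summed level of smooth muscle and pericyte markers was higher in Ad-Cre-GFP, but only 4 of them had enough counts to be tested. A list of 12 of them, none of which is a member, summed to 27.6 to 30.0 CPM in Ad-Cre-GFP and 10.4 to 10.7 CPM in Ad-GFP. Of its 4 tested genes 3 were higher, against 34.0% of all genes tested, and Npnt did not pass (−0.15 ± 0.25, adjusted p = 0.603). Among the higher ones, Notch3 was above the count filter in every Ad-Cre-GFP library but not in every Ad-GFP library. Most of the sum was Mcam, an adhesion molecule of several cell types. Kcnj8 and Abcc9 were at 0 in all 6 libraries. Des, a defining muscle filament, had 4, 8 and 5 counts in Ad-Cre-GFP and 1, 4 and 3 counts in Ad-GFP, and Myocd, the smooth muscle coactivator of SRF, had 1 count in all. Their part in the changes of Acta2, Tagln and Cnn1 was not tested. Fibroblast markers fell, with 271 to 291 CPM in Ad-Cre-GFP and 380 to 398 CPM in Ad-GFP for a list of 7. Lum and Thy1 were at 0 in all libraries. All 4 tested were lower, against 35.8% of all genes tested. Dpt had 2, 0 and 0 counts in Ad-Cre-GFP and 9, 11 and 9 counts in Ad-GFP. Pdgfra had 4, 8 and 5 counts in Ad-Cre-GFP and 13, 16 and 23 counts in Ad-GFP. Dpt and Pdgfra passed the count filter through the Ad-GFP libraries alone, where they are high, so their calls follow in part from the filter. Endothelial markers summed to 2.13 to 2.61 CPM in Ad-Cre-GFP and 0.107 to 0.473 CPM in Ad-GFP, most of the Ad-Cre-GFP sum being Kdr, with 58, 64 and 51 counts in Ad-Cre-GFP and 2, 2 and 0 counts in Ad-GFP. Pecam1, a defining marker, had 1, 5 and 4 counts in Ad-Cre-GFP and 4, 8 and 2 counts in Ad-GFP, and Tie1 was at 0 in all libraries. Immune markers summed to 6.57 to 7.14 CPM in Ad-Cre-GFP and 11.0 to 13.4 CPM in Ad-GFP. Of the 2 tested, Cd14 was lower (−1.23 ± 0.11) and Cd68 did not pass (−0.02 ± 0.15), while Adgre1 was at 0 in all libraries.

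**Figure D4:**
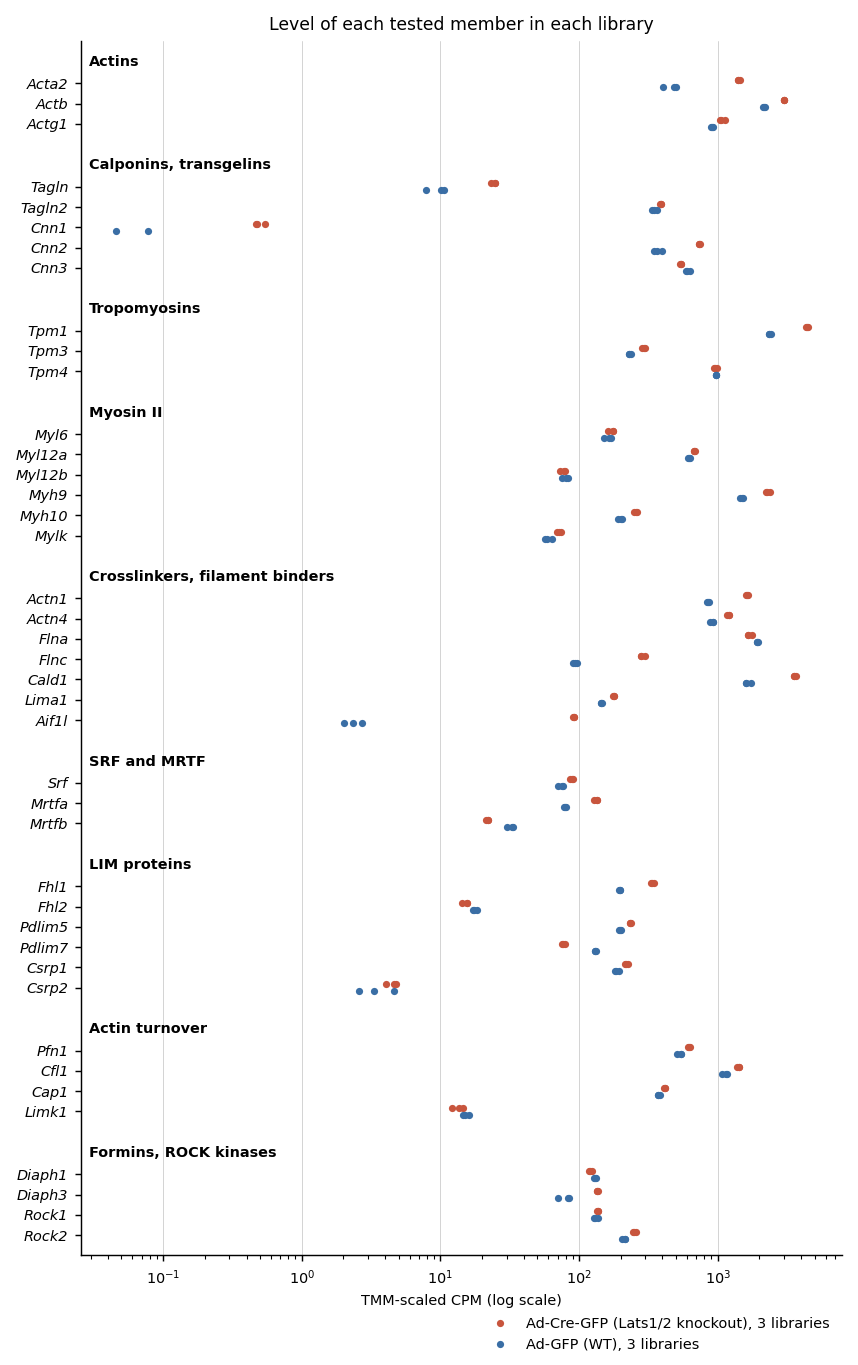
Level of each of the 41 tested members (TMM-scaled CPM, log axis), grouped by role, with 1 point a library and Ad-Cre-GFP drawn just above Ad-GFP in each row. Aif1l stands at 90.1 to 91.4 CPM in Ad-Cre-GFP and 2.01 to 2.73 CPM in Ad-GFP; the Ad-GFP library in which Cnn1 had 0 counts is not drawn.

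Tropomyosins, which wrap actin filaments and set which myosins and severing proteins can bind, changed unevenly. Tpm1 had 4439, 4373 and 4470 CPM in Ad-Cre-GFP and 2358, 2446 and 2334 CPM in Ad-GFP. It was higher in every Ad-Cre-GFP library by a wide margin (0.90 ± 0.03, adjusted p = 7.67e-17). Tpm3 rose by 0.33 ± 0.03, alone and with its copies alike. Tpm4 had 965, 947 and 995 CPM in Ad-Cre-GFP and 968, 976 and 974 CPM in Ad-GFP. Its groups overlapped, and its log2 fold change of −0.01 ± 0.03 (adjusted p = 0.885) took the other sign with RLE size factors. Tpm2 had 6 counts in the Ad-Cre-GFP libraries and 8 in the Ad-GFP libraries. Within the family, per kb of exon, Tpm1 made up 58.3 ± 0.326% in Ad-Cre-GFP and 43.3 ± 0.541% in Ad-GFP, and Tpm4 37.6 ± 0.357% in Ad-Cre-GFP and 52.1 ± 0.551% in Ad-GFP. On this per-kb scale Tpm4 led the family in every Ad-GFP library and Tpm1 in every Ad-Cre-GFP library. In CPM not divided by length, Tpm1 stood above Tpm4 in every library of both groups. The share of Tpm1 was then 11.5 percentage points higher in Ad-Cre-GFP, so the rise does not depend on length but the change of leader does. With Tpm3 and Tpm4 copies included, Tpm1 made up 51.7 ± 0.176% per kb in Ad-Cre-GFP and 37.2 ± 0.311% in Ad-GFP, so the per-kb order held. The 4 genes summed to 5619 ± 82.6 CPM in Ad-Cre-GFP and 3630 ± 57.1 CPM in Ad-GFP, a ratio of 1.55.

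For myosin II, the motor of contractile bundles, the 2 tested heavy chains rose, and of the 3 tested light chains 1 rose. Myh9, non-muscle myosin IIA, had 2406, 2258 and 2241 CPM in Ad-Cre-GFP and 1511, 1532 and 1458 CPM in Ad-GFP. The groups were well separated (0.62 ± 0.03, adjusted p = 2.46e-13). Myh10, non-muscle myosin IIB, rose by 0.37 ± 0.03, with 248 to 262 CPM in Ad-Cre-GFP and 190 to 203 CPM in Ad-GFP. Mylk, the kinase that phosphorylates the regulatory light chain, had 73.8, 69.2 and 72.2 CPM in Ad-Cre-GFP and 58.7, 56.6 and 64.4 CPM in Ad-GFP (0.26 ± 0.04, adjusted p = 1.93e-05). Of the 3 heavy chains among the members, per kb of exon, Myh9 made up 87.9 ± 0.328% in Ad-Cre-GFP and 86.0 ± 0.146% in Ad-GFP. The difference was 1.94 percentage points. These summed heavy chains had a ratio of 1.47, with 2526 ± 93.0 CPM in Ad-Cre-GFP and 1720 ± 48.0 CPM in Ad-GFP. Myh14, a heavy chain that is not a member, was left out of these shares and sums. The 4 light chain genes had a ratio of 1.05, with 918 ± 9.85 CPM in Ad-Cre-GFP and 872 ± 19.3 CPM in Ad-GFP, and 1.03 with copies (exact permutation p = 0.20).

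Of the light chains, Myl12a, a regulatory chain, rose by 0.14 ± 0.03 (adjusted p = 0.000215). Its paralog Myl12b, 96.6% identical over 555 bases, had a log2 fold change of −0.05 ± 0.04 (adjusted p = 0.291), and the split of reads between them is uncertain. The essential chain Myl6 had 0.08 ± 0.04 (adjusted p = 0.119) alone and 0.05 ± 0.03 with its copies. Myl9, the regulatory chain typical of smooth muscle, was scarce, with 4 counts over the Ad-Cre-GFP libraries and 29 over the Ad-GFP libraries. The ratio per library total was 0.103 (95% exact binomial interval 0.0264 to 0.294), at counts below the test's filter. Myh11, the smooth muscle heavy chain, had 14 counts in Ad-Cre-GFP and 7 in Ad-GFP, and its ratio of 1.5 had an interval of 0.565 to 4.38. The smooth muscle myosin genes were thus close to undetected in both groups, whereas Acta2 was abundant in both.

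Crosslinkers and other filament binders held the largest single change, that of Aif1l, with 6 of 7 tested members higher and a median log2 fold change of 0.92. Aif1l, a relative of the allograft inflammatory factor Aif1 that binds and bundles actin, had 91.3, 91.4 and 90.1 CPM in Ad-Cre-GFP and 2.73, 2.35 and 2.01 CPM in Ad-GFP. The gene was low but detected in the 3 Ad-GFP libraries, with 60, 60 and 38 counts there, and far higher in the 3 Ad-Cre-GFP libraries. The fold change was 38.2 (5.25 ± 0.07 on the log2 scale, adjusted p = 1.22e-23). Flnc, the filamin of muscle and of mechanically loaded cells, had 300, 282 and 281 CPM in Ad-Cre-GFP and 93.3, 96.1 and 91.2 CPM in Ad-GFP. Its 3.07-fold rise (1.62 ± 0.03, adjusted p = 4.16e-20) left no overlap. Flna, the filamin common to most cells, was lower, with 1767, 1669 and 1646 CPM in Ad-Cre-GFP and 1952, 1938 and 1911 CPM in Ad-GFP (−0.19 ± 0.03, adjusted p = 1.27e-05). The filamin paralogs therefore changed in opposite directions, while per kb of exon Flna remained the higher, at 180 CPM against 30.6 CPM for Flnc in Ad-Cre-GFP and 206 CPM against 9.95 CPM in Ad-GFP.

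Cald1, caldesmon, which binds actin, tropomyosin and myosin, had 3578, 3555 and 3678 CPM in Ad-Cre-GFP and 1611, 1600 and 1743 CPM in Ad-GFP. It was 2.18-fold higher and the groups lay far apart (1.13 ± 0.03, adjusted p = 1.30e-17). Actn1, alpha-actinin 1, which ties filaments together in stress fibres, had 1657, 1623 and 1589 CPM in Ad-Cre-GFP and 845, 865 and 859 CPM in Ad-GFP. That rise of 0.92 ± 0.03 on the log2 scale (adjusted p = 3.12e-17) was larger than that of Actn4, at 0.40 ± 0.03. Lima1, or EPLIN, which stabilises bundles at the cell cortex, rose by 0.30 ± 0.03, with 175 to 180 CPM in Ad-Cre-GFP and 144 to 146 CPM in Ad-GFP. Lmod1, a filament nucleator of smooth muscle, had 11 counts in Ad-Cre-GFP and 5 in Ad-GFP and was not tested.

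Of the transcription factor genes, Srf and Mrtfa were higher and Mrtfb lower. Srf had 86.7, 88.4 and 90.7 CPM in Ad-Cre-GFP and 70.0, 76.9 and 75.1 CPM in Ad-GFP. All Ad-Cre-GFP libraries were higher, by a modest amount (0.26 ± 0.04, adjusted p = 3.66e-06). Mrtfa had 135, 134 and 128 CPM in Ad-Cre-GFP and 79.3, 78.2 and 80.3 CPM in Ad-GFP, a clear separation (0.74 ± 0.03, adjusted p = 1.42e-14). Mrtfb had 21.9, 21.5 and 22.1 CPM in Ad-Cre-GFP and 33.5, 30.0 and 32.7 CPM in Ad-GFP (−0.55 ± 0.05, adjusted p = 8.19e-09). It was lower in every Ad-Cre-GFP library. Per kb of exon, Mrtfa stood at 21.7 CPM in Ad-Cre-GFP and 13.0 CPM in Ad-GFP, and Mrtfb at 2.43 CPM in Ad-Cre-GFP and 3.57 CPM in Ad-GFP, so Mrtfa was the more abundant coactivator in both groups. These are mRNA levels, and where the proteins were in the cell was not measured.

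Among LIM-domain proteins, scaffolds that join actin to adhesions and Z-discs, 3 of 6 were higher, 2 lower and 1 did not pass. Fhl1 had 335, 330 and 347 CPM in Ad-Cre-GFP and 199, 197 and 195 CPM in Ad-GFP (0.77 ± 0.03, adjusted p = 1.16e-15). Pdlim7, or Enigma, was lower, with 75.7, 76.1 and 79.8 CPM in Ad-Cre-GFP and 130, 133 and 131 CPM in Ad-GFP (−0.76 ± 0.03, adjusted p = 7.84e-15). Neither gene's groups overlapped. Fhl2, a coactivator and known SRF target, was lower by a small amount, with 15.5, 14.3 and 15.5 CPM in Ad-Cre-GFP and 17.1, 17.6 and 18.5 CPM in Ad-GFP (−0.23 ± 0.06, adjusted p = 0.00292). Pdlim5 and Csrp1 rose by 0.24 ± 0.03 and 0.23 ± 0.03. Csrp2 was scarce, with 4.05 to 4.78 CPM in Ad-Cre-GFP and 2.60 to 4.65 CPM in Ad-GFP. Its groups overlapped (0.32 ± 0.16, adjusted p = 0.0875), and it passed without Ad-GFP replicate 2 (adjusted p = 0.00231).

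Of the 4 genes of filament turnover, 3 were higher and 1 lower, all by less than 2-fold. Cfl1, the severing protein cofilin, had the largest change of the 4, with 1428, 1368 and 1417 CPM in Ad-Cre-GFP and 1147, 1166 and 1080 CPM in Ad-GFP. The groups did not overlap (0.31 ± 0.03, adjusted p = 1.86e-08). Pfn1, profilin, which feeds monomers to growing ends, rose by 0.23 ± 0.03, and Cap1, which recycles cofilin-bound actin, by 0.15 ± 0.03. Limk1, the kinase that inactivates cofilin, had 14.6, 13.7 and 12.1 CPM in Ad-Cre-GFP and 14.5, 16.1 and 15.1 CPM in Ad-GFP. Its groups overlapped, its adjusted p was 0.0411, and it did not pass when replicate 2 or 3 of either group was left out (adjusted p from 0.0510 to 0.289) and with DESeq2 (adjusted p = 0.152).

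Of the formins and ROCK kinases, 2 of 4 were higher, 1 was lower and 1 did not pass. Diaph3, a formin that nucleates straight filaments, had 135, 135 and 136 CPM in Ad-Cre-GFP and 83.8, 84.6 and 70.8 CPM in Ad-GFP. Ad-GFP replicate 3 was the lowest library, and the groups did not overlap (0.76 ± 0.05, adjusted p = 2.27e-08). Its paralog Diaph1 was slightly lower, with 124, 120 and 119 CPM in Ad-Cre-GFP and 130, 132 and 129 CPM in Ad-GFP (−0.11 ± 0.03, adjusted p = 0.00462), and did not pass without Ad-Cre-GFP replicate 3 (adjusted p = 0.0621). Rock2, a kinase that activates myosin II, rose by 0.25 ± 0.03, while its paralog Rock1 had a log2 fold change of 0.05 ± 0.03 (adjusted p = 0.182).

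Other genes of the same pathways did not all follow the members. Of 10 other SRF and MRTF targets tested, 5 were higher, 2 lower and 3 did not pass. Pdlim1, a LIM partner of alpha-actinin, rose by 1.32 ± 0.05, and Zyx, zyxin of focal adhesions, by 1.07 ± 0.04. Filip1l, a filamin-interacting relative, fell furthest, to 54.0, 53.4 and 58.9 CPM in Ad-Cre-GFP, against 235, 234 and 269 CPM in Ad-GFP (−2.15 ± 0.06). SRF's other partners and regulators had no higher gene: Elk3 (−0.74 ± 0.04), Elk4 (−0.19 ± 0.05) and Scai (−0.29 ± 0.07), a suppressor of MRTF, were lower among the 4 tested. Of 6 SRF immediate-early targets, which serum induces through SRF and its Elk partners, 5 were lower and 1 higher. Egr1 had 2.56, 3.51 and 3.28 CPM in Ad-Cre-GFP and 11.6, 11.8 and 14.7 CPM in Ad-GFP (−2.01 ± 0.12), and Fos fell by 1.5 ± 0.12. Junb was lower by a small amount (−0.19 ± 0.03). The count of lower genes in that list was 3 without Ad-Cre-GFP replicate 3.

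In the list of the Arp2/3 complex, which nucleates branched filaments, and its activators, 4 of 12 were higher and 5 lower. At 33.3% and 41.7%, these counts were near the shares of all genes tested, 34.0% and 35.8%. Arpc1b stood at −0.61 ± 0.03, Wasf2 at −0.51 ± 0.03 and Arpc4 at 0.42 ± 0.03. Of 16 severing, capping and monomer-binding genes, 8 were higher and 5 lower. Gsn and Capza1, which had adjusted p of 0.0475 and 0.0497, were 2 of the 5, and the count of lower genes was 3 under several settings. Tmsb4x, thymosin beta 4, which holds actin monomers back from filaments, had 1794, 1790 and 1819 CPM in Ad-Cre-GFP and 3437, 3421 and 3737 CPM in Ad-GFP. It was lower in every Ad-Cre-GFP library (−0.97 ± 0.03, adjusted p = 1.61e-16). The cofilin phosphatase Ssh1 rose by 0.90 ± 0.05 and its relative Ssh3 fell by 0.87 ± 0.04.

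**Figure D5:**
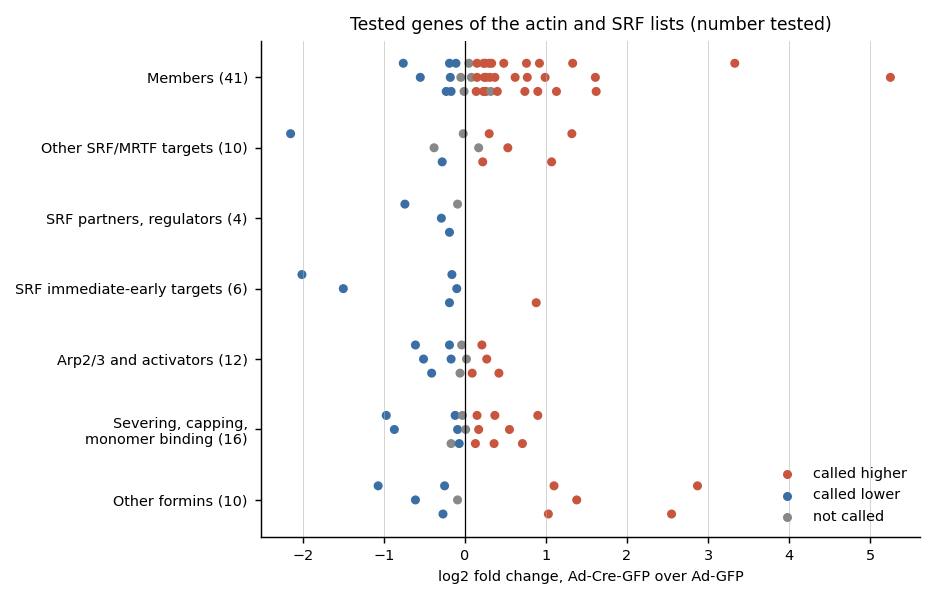
Log2 fold change of every tested gene, Ad-Cre-GFP over Ad-GFP, with 1 point a gene, for the members and for the other pathway lists (number tested in brackets); colours mark genes called higher, called lower or not called, and the vertical offsets within a row only separate points. The immediate-early list has 5 of 6 genes lower, and no SRF partner is higher.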

How the data were processed

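Poly(A)-selected RNA was sequenced, per the labels. Each library's column of the deposited table holds whole-number counts of reads per gene, taken from aligned reads according to its header. The genome build GRCm38, kallisto 0.46.2 and sleuth 0.30.1 appear in the submitters' processing notes. The aligner, the counter, its strand setting and the annotation: not given in the sources used here.

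The 46 members and all lists were chosen with earlier results of these data known. Symbols and coordinates are from GENCODE M21 (GRCm38), and 48058 of 48440 IDs matched. Genes were filtered with filterByExpr, scaled by TMM and tested in edgeR 4.0.16 (quasi-likelihood, robust) in R 4.3.3, with Benjamini-Hochberg adjustment over 14811 genes; adjusted p-values are from this test unless another is named. CPM of single genes are TMM-scaled, while sums, shares and copies use library totals. A positive log2 fold change means higher in Ad-Cre-GFP; each SE is the absolute change divided by the square root of F. Intervals cover counting error only. Copies were found with minimap2 2.31-r1302. The edgeR fit was tested on simulated data with 200 changed genes. That is a far smaller share than was called here, so the simulation does not cover so broad a response.

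Values in each library are given for Acta2, Actb, Srf, Mrtfa, Mrtfb and Aif1l, for the largest changes in each role, and for further members chosen after their values were seen. One further list is not reported here. Of each other pathway list, the 3 called genes with the largest change and a mean of at least 5 CPM are named. Replicate pairs differed by more than sampling noise (chi-square per gene 2.04 to 4.27), so all 6 libraries were kept. Alternatives were other scalings and filters, DESeq2 1.42.0, limma-voom (limma 3.58.1), no robust dispersion, a replicate block, thinning, summed copies and leaving out each library.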

Additional observations from a re-analysis of the deposited data

How the results depend on the processing

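Of the 41 tested members, 36 kept their direction and their side of the threshold under every alternative that gave a value; Cnn1 gave none where genes needed 1 CPM on average. Counts of higher members ran from 28 to 32 and of lower members from 5 to 8. The highest counts include members outside the 41, Actg2 as higher and Myl9 as lower. Actg2 had 36 counts in Ad-Cre-GFP and 1 in Ad-GFP, and Myl9 had 4 in Ad-Cre-GFP and 29 in Ad-GFP. With a library left out, each passed the filter only through the group where it is high. Thinned to the smallest library total, 29 members were higher and 6 lower. Tpm4, not called anywhere, had a log2 fold change of 0.01 with RLE size factors, no low-count filter or DESeq2, 0.0023 with that 1 CPM minimum, and −0.01 to 0.02 with 1 library left out. Myl6 passed with no filter (adjusted p = 0.0187), without Ad-Cre-GFP replicate 2 (0.0122) and without Ad-GFP replicate 1 (0.0497), and Csrp2 passed with no filter (0.0329). Limk1 was lost with RLE (0.0558), no filter (0.0727) and thinning (0.159). The severing and capping list had 3 lower genes with RLE, no filter, the 1 CPM minimum, DESeq2 and thinning, and 3 to 4 with 1 library left out; the immediate-early list had 3 to 5. The Myh11 share differed by −0.00404 to 0.00208 percentage points with 1 library left out. The cause of these shifts was not tested.

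The groups share replicate numbers, but same-numbered libraries deviated together by r = 0.049, 0.051 and 0.005, so the numbers were not taken as pairs. With the replicate block, 30 members were higher and 7 lower, and 5130 and 5348 of all genes; Csrp2 passed (0.34 on the log2 scale, adjusted p = 0.0311).

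Members with few counts are limited by depth: a count of 0 allows up to 3 counts, 0.099 to 0.1605 CPM. Summing copies was chosen after seeing the data.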

Other observations

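Formins other than the listed Diaph genes held larger changes than most members. Of 10 tested, 5 were higher and 4 lower. Fhod3, a formin of muscle, had 41.8, 40.1 and 43.2 CPM in Ad-Cre-GFP and 5.65, 5.47 and 5.98 CPM in Ad-GFP (2.87 ± 0.07 on the log2 scale, SE, adjusted p = 1.46e-19). Daam2, a formin that acts in Wnt signalling, had 87.1, 86.4 and 83.2 CPM in Ad-Cre-GFP and 14.3, 14.6 and 15.0 CPM in Ad-GFP (2.55 ± 0.05), and Fmn1 rose by 1.38 ± 0.04. The groups did not overlap for any of these 3 genes. Chosen after their values were seen, Inf2, a formin that can also sever filaments, was lower (−0.61 ± 0.03) and Fmnl2 was lower (−1.07 ± 0.08).

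Of 11 further paralogs, most of them sarcomeric, 4 were tested. All except the non-muscle gene Myh14 were scarce. Acta1, skeletal alpha-actin, also chosen after its values were seen, had 64, 60 and 81 counts in Ad-Cre-GFP and 10, 6 and 6 counts in Ad-GFP (2.82 ± 0.28). It was above the count filter in every Ad-Cre-GFP library, where it is high, but not in every Ad-GFP library. Its call thus follows in part from the filter. The cardiac actin Actc1 was at 0 in all 6 libraries. Myh14, non-muscle myosin IIC, was lower, with 28.7, 28.5 and 27.4 CPM in Ad-Cre-GFP and 33.0, 33.2 and 34.4 CPM in Ad-GFP (−0.25 ± 0.05).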
